A study of Mus musculus with 5 samples.

Results

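The imprinted cluster around Igf2r and Airn was followed on 5 mouse expression arrays. Its 5 genes, chosen by symbol, were Igf2r, Airn, Slc22a2, Slc22a3 and Mas1, out of 19938 genes measured in all. Of these, 4 had a probe set of 1 gene in the platform table, and Slc22a3 was named by no probe set there and is not analysed here. The arrays, 1 per group, held embryonic stem cells (ESCs) named 2i ESCs and S ESCs, and embryonic fibroblasts (MEFs) of 3 kinds, here written 2n 2i MEFs, control MEFs and 4n 2i MEFs. All 5 groups came from F1 animals of the strains 129X1/SvJ and MSM/Ms, and the labels give no age, treatment dose or number of pooled animals. The name 2i usually means culture with inhibitors of MEK and GSK3, while S, 2n and 4n are not explained in the labels. A number in each title was 15 on the 2i ESC and the 2n MEF sample alike, 36 on the S ESC, 2 on the 4n MEF and 4 on the control MEF sample. The labels do not say how the 2i MEFs were made. The study's title concerns female ESCs whose gametic DNA methylation is retained, and the comparisons here ask how the cluster was expressed in each ESC culture and each kind of MEF.

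Igf2r encodes a receptor that carries insulin-like growth factor 2 to the lysosome for breakdown and sorts lysosomal enzymes tagged with mannose 6-phosphate. In most mouse tissues it is expressed from the maternal chromosome. Airn is a long noncoding RNA read from the paternal chromosome in the opposite direction, from a start within an intron of Igf2r. That start lies in a control region that is methylated in the oocyte, so the maternal copy is silent. Transcription of Airn across the Igf2r promoter silences Igf2r on the same chromosome, and in the placenta also Slc22a2 and Slc22a3. In undifferentiated ESCs Airn is known to be little expressed and Igf2r to be read from both chromosomes. Expression arrays do not tell the parental copies apart.

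In RefSeq (assembly GRCm38.p6), Igf2r (Entrez Gene 16004) lies on the minus strand at chr17:12682406-12769706 and Airn (Entrez Gene 104103) on the plus strand at chr17:12741311-12859884. The Airn start is 28395 bases downstream of the Igf2r start, and the pair share 28396 bases. Mas1 (Entrez Gene 17171), on the minus strand at chr17:12838841-12868150, overlaps the far end of Airn by 21044 bases. Slc22a2 (Entrez Gene 20518) lies at chr17:12584189-12628489 and Slc22a3 (Entrez Gene 20519) at chr17:12419972-12507704. The exons or introns that each probe set covers are not given in the files.

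The start regions of the overlapping pair are shown because their transcripts differed in opposite directions on the 4n 2i MEF array and because DNA methylation, the subject of the study, falls on CpG sites. Each sequence runs from 250 bases before the RefSeq start to 50 bases after it, on the strand of the gene, with every CpG in capitals.
Igf2r, minus strand, chr17:12769657-12769956: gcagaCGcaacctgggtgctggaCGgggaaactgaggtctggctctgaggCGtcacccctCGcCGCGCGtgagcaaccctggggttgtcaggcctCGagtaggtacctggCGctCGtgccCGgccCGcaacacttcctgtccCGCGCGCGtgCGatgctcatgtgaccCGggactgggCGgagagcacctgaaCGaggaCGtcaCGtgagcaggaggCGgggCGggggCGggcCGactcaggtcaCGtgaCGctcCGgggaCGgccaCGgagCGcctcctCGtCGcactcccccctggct
Airn, plus strand, chr17:12741061-12741360: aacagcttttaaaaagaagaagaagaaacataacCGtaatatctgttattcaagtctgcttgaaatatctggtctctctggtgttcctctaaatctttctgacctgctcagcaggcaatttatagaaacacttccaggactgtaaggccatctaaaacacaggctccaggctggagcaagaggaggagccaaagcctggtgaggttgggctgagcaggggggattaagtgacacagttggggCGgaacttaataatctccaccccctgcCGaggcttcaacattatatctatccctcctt
The Igf2r window held 34 CpG sites and 70.7% G and C, and 7.7% of 32851 RefSeq windows of the same length had as many or more CpG sites. The Airn window held 3 CpG sites and 45.7% G and C, a CpG count that 76.7% of windows reached or passed. It ends 50 bases after the start, so this count does not describe the control region as a whole. The median window had 7, and those of Slc22a2, Slc22a3 and Mas1 had 8, 5 and 2. The letters CACGTG, a motif that reads the same on both strands and contains a CpG, occurred 2 times in the Igf2r window and not in the other 4 windows. It occurred at least once in 7.15% and at least 2 times in 0.594% of all windows. This motif was looked for after the sequence had been read, and a match describes the letters only.

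Igf2r and Airn were the cluster genes with signal, and each had its extreme value on the 4n 2i MEF array. Igf2r had 1891 intensity units on the 2i ESC array, 1259 on the S ESC array, 1048 on the 2n 2i MEF array, 126.3 on the 4n 2i MEF array and 3048 on the control MEF array. Control MEFs were thus highest, the ESC and 2n arrays lay between 34.4% and 62% of the control value, and the 4n array had 4.14% of it. Airn had 93.1 units on the 2i ESC array, 75.3 on the S ESC array, 992.7 on the 2n 2i MEF array, 2444 on the 4n 2i MEF array and 845.9 on the control MEF array. The 4n array was highest, the other MEF arrays had 40.6% and 34.6% of its value, and the ESC arrays had 3.81% and 3.08%. The floor of an array, above which a gene was taken to be measured, was the median of its one-gene probe sets and lay between 221.6 and 242.1 units. Igf2r reached it on 4 arrays, all but the 4n 2i MEF array, and Airn on the 3 MEF arrays. How much of a value below the floor is background is not known, and a fold against it depends on that share.

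Slc22a2, a transporter of organic cations that is prominent in the kidney, was below the floor on all 5 arrays. It had 82.2 units on the 2i ESC array, 71.6 on the S ESC array and 90.2 on each MEF array. Mas1, a receptor for a peptide of the angiotensin system, was below the floor on all 5 arrays too, with 44.6 units on the 2i ESC array, 45.3 on the S ESC array and 49.1 on each MEF array. The deposited values of Slc22a2 and of Mas1 were identical on the 3 MEF arrays. Such identity is common in this table, with 37.4% to 45.4% of probe sets identical between a pair of MEF arrays, 1.19% between the ESC arrays and 0% between an ESC and a MEF array, and it is not read as measured equality. Igf2r and Airn had a different value on each array. With no value above the floor, neither Slc22a2 nor Mas1 entered a comparison.

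**Figure D1:**
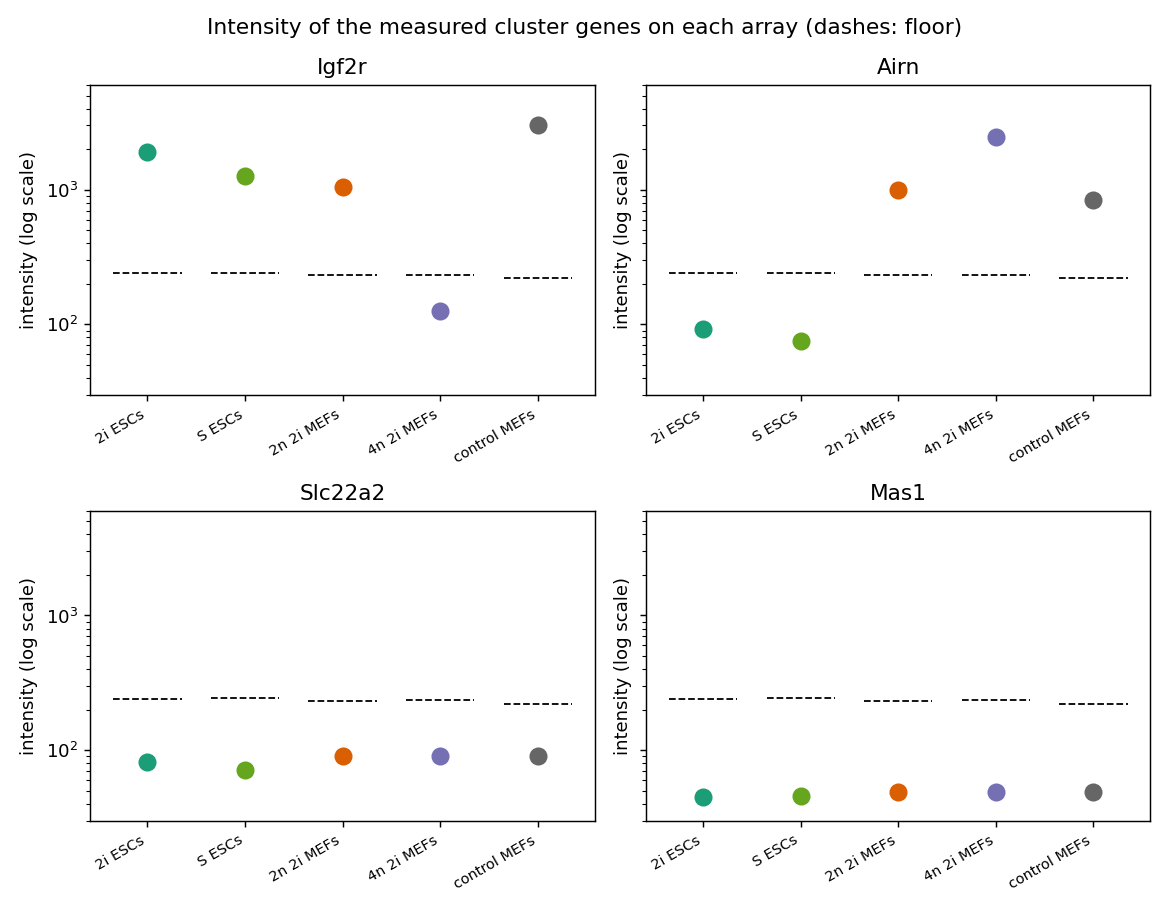
Intensity (log axis) of Igf2r, Airn, Slc22a2 and Mas1 on the 5 arrays, 1 point per array, with a dashed line at each array's floor. Igf2r is below the floor on the 4n 2i MEF array alone (126.3 units), Airn is below it on both ESC arrays (93.1 and 75.3 units), and Slc22a2 and Mas1 are below it everywhere.

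With 1 array per group, differences between single arrays have no test, and the number of arrays limits the precision. The labelled cell types carried their markers. The 6 ESC markers, among them Pou5f1 and Nanog, summed to between 44631 and 46939 units on the ESC arrays and to between 446 and 523 on the MEF arrays, where none reached the floor. The 6 fibroblast markers, among them Col1a1 and Thy1, summed to between 44739 and 59806 units on the MEF arrays and to 1691 and 2583 on the ESC arrays, where 3 and 4 of them reached the floor. The 4n 2i MEF array stood apart in macrophage genes. The 8 macrophage markers summed to 15899 units there, to 1362 and 1827 on the other MEF arrays and to 1036 and 1060 on the ESC arrays. Other markers differed from the control too. On the 2n array 1 of 3 extraembryonic endoderm markers compared was higher (Gata6, 2.1-fold). So were 1 of 3 neural and glial (Nes, 3.24-fold) and 1 of 2 endothelial markers (Emcn, 6.06-fold, control below the floor). None in these lists was 2-fold lower. On the 4n array Gata6 was 3.7-fold and Map2 2.04-fold higher, and Tubb3 2.28-fold lower. Of all genes, 1.48% and 5.26% were 2-fold higher and 0.425% and 3.42% lower in these pairs.

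In ESCs against MEFs, Airn was the member that passed the test. Its mean log2 intensity was 6.40 ± 0.21 (SD, n = 2) in ESCs and 10.31 ± 0.82 (SD, n = 3) in MEFs. The difference of -3.91 (95% interval -5.27 to -2.54) was a 15-fold lower level in ESCs, with an adjusted p of 0.00388 in limma over 11266 genes. Airn was lower on each ESC array than on each MEF array. By the same rule, an adjusted p below 0.05 together with a 2-fold difference, 16.7% of all genes were lower in ESCs and 16.8% higher, and Airn had the 135th lowest difference. Without the 2i ESC array the adjusted p of Airn was 0.0527, and without the S ESC array 0.061, at log2 differences of -4.06 and -3.76. The spread in this test is that between conditions, not between replicates, and the ESC values of Airn were below the floor. Values identical between MEF arrays enter the test as no spread. This affects the p values of such genes and the variance that limma borrows across genes for all others.

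Igf2r did not pass the same test. Its mean log2 intensity was 10.59 ± 0.42 (SD, n = 2) in ESCs and 9.53 ± 2.33 (SD, n = 3) in MEFs, a difference of 1.06 with a 95% interval from -2.74 to 4.85 and an adjusted p of 0.55 in limma. The wide interval came with the range of Igf2r among the MEFs, where the control array was above both ESC arrays and the 2n and 4n arrays were below both. Without the 4n 2i MEF array the difference was -0.21 (adjusted p = 0.783 in limma), so its sign rests on that array. In bulk RNA, fewer cells that express a gene and less RNA per cell cannot be told apart.

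Between the ESC cultures Igf2r lay within 2-fold. It was 1.5-fold higher on the 2i ESC array than on the S ESC array (1891 against 1259 units, log2 difference 0.59), short of 2-fold. Of 10461 genes in this pair, 2.79% were at least 2-fold higher and 2.54% lower on the 2i array, and Igf2r had the 799th highest difference. Airn was below the floor on both arrays and was not compared. Igf2, the ligand that Igf2r clears, was 3.69-fold lower on the 2i array (184.4 against 682.6 units, the former below the floor).

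In 2n 2i MEFs against control MEFs, Igf2r was lower and Airn was within 2-fold. Igf2r was 2.91-fold lower on the 2n array (1048 against 3048 units, log2 difference -1.54), the 9th lowest of 10126 differences. At least 2-fold lower genes made up 0.425% and at least 2-fold higher genes 1.48% of this pair. Identical values, 45.4% of probe sets in this pair, count as a difference of 0, so such shares and ranks depend on them. They made up 37.9% of probe sets in 4n against control MEFs and 37.4% in 4n against 2n. Airn was 1.17-fold higher on the 2n array (992.7 against 845.9 units, log2 difference 0.23), the 1418th highest difference. At a threshold of 3-fold, Igf2r no longer counted as lower. Beside the 2i ESC array, whose title carries the same number 15, Igf2r was 1.8-fold lower on the 2n array (1048 against 1891 units) and Airn 10.6-fold higher (992.7 against 93.1 units, the latter below the floor).

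In 4n 2i MEFs against control MEFs, Igf2r and Airn differed in opposite directions by at least 2-fold. Igf2r was 24-fold lower on the 4n array (126.3 against 3048 units, log2 difference -4.58), the third lowest of 10313 differences, against a value below the floor. Airn was 2.89-fold higher on the 4n array (2444 against 845.9 units, log2 difference 1.53), the 293rd highest. Genes at least 2-fold lower made up 3.42% and genes at least 2-fold higher 5.26% of the pair. The log2 difference of Igf2r less that of Airn was -6.11 here and -1.77 for the 2n array. Both comparisons share the control array, so they are not independent. At a threshold of 3-fold, Airn no longer counted as higher.

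The 4n and 2n 2i MEF arrays were also compared directly, without the control array. Igf2r was 8.25-fold lower on the 4n array (126.3 against 1048 units, log2 difference -3.04), the 6th lowest of 10266 differences. Airn was 2.46-fold higher (2444 against 992.7 units, log2 difference 1.30), the 230th highest, and it too lay short of 3-fold. In this pair 2.36% of genes were at least 2-fold lower and 3.33% higher. Of the 6 fibroblast markers, 5 were within 2-fold of the control array on the 4n array, among them Thy1 at 7119 against 7705 units, and Col3a1, a fibrillar collagen, was 2.63-fold higher. Of the macrophage markers, 6 of 8 were at least 2-fold higher than on the control array, led by the complement gene C1qb (3820 against 170.9 units), and the pan-leukocyte gene Ptprc and the Fc receptor gene Fcgr1 were below the floor on every array. No marker was listed at 0. The part of other cells in the Igf2r and Airn values was not tested.

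**Figure D2:**
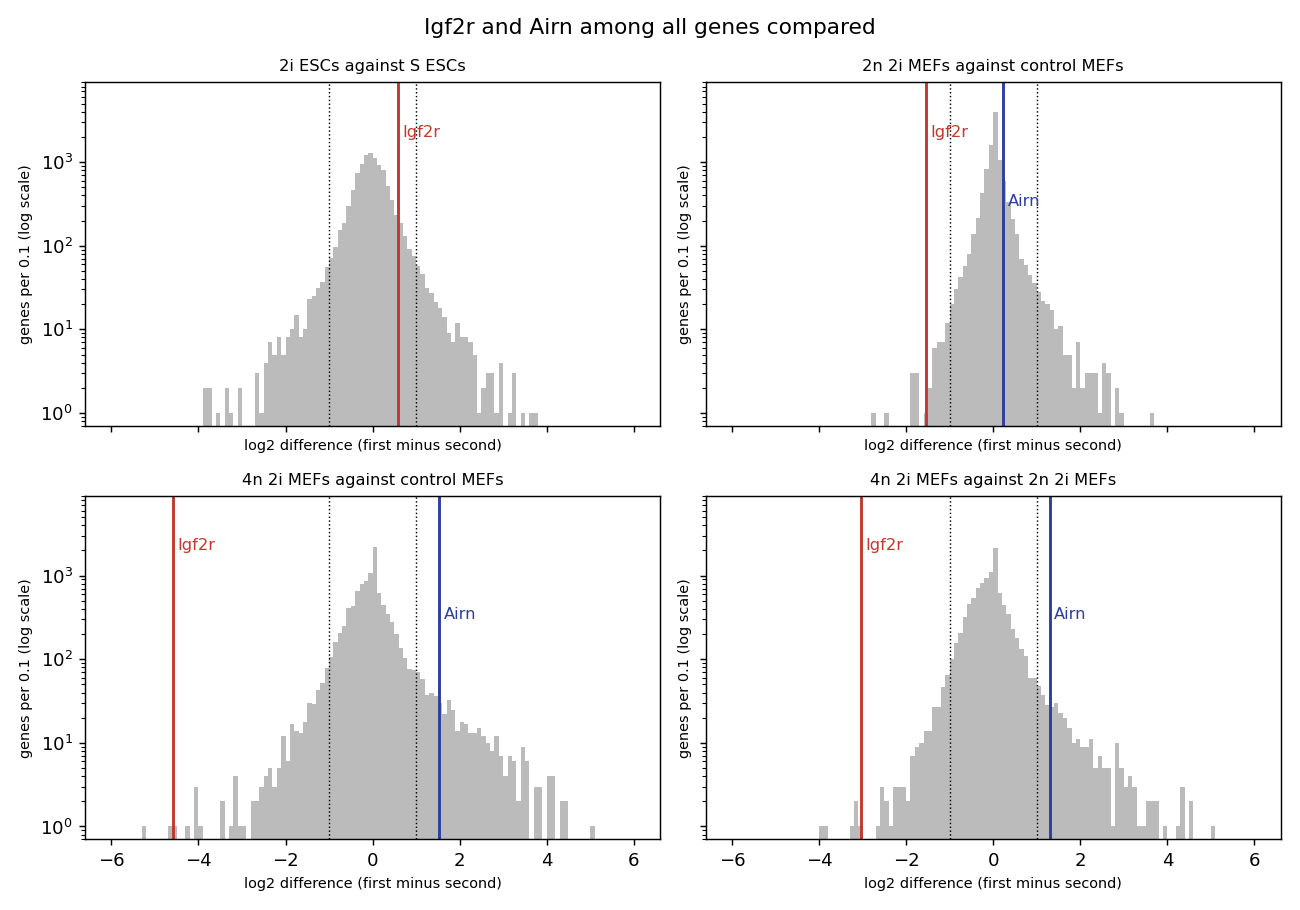
Number of genes (log axis) by log2 difference for the 4 pairs of arrays compared, with vertical lines at Igf2r and Airn and dotted lines at 2-fold. Igf2r lies in the outer lower tail in the 3 MEF pairs (-1.54, -4.58 and -3.04), and Airn lies above 2-fold in the pairs with the 4n array (1.53 and 1.30).

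Values for the genes next to the cluster follow. Of 12 listed neighbours 9 were measured and 6 were above the floor in MEFs, and none of the 6 was at least 2-fold higher or lower in any of the 3 MEF pairs. With 0.425% to 5.26% of all genes past 2-fold in a given direction in these pairs, a count of 0 among 6 is near the background. Their median log2 difference was 0.06 for the 2n array and -0.23 for the 4n array against the control, beside medians over all genes of 0.00 and -0.01. Map3k4, a kinase gene on the far side of Slc22a3, had -0.22 in 4n against control MEFs, and Agpat4, an acyltransferase gene beyond it, -0.35. On the Mas1 side, the ribosomal protein gene Mrpl18 had -0.21, the chaperonin gene Tcp1 -0.23, and Sod2, the mitochondrial superoxide dismutase, -0.40. Wtap, of the RNA methylation complex, had 4617 units on each MEF array on the brighter of its 2 probe sets. The other set, not used here, had a different value on each MEF array. Plg and Acat3 were below the floor on all arrays. Between ESCs and MEFs, 2 of 7 neighbours tested were higher in ESCs, Sod2 (log2 1.29, adjusted p = 0.00326 in limma) and the nuclease gene Pnldc1 (2.71, adjusted p = 0.000187), and none was lower, beside 16.8% of all genes higher and 16.7% lower.

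**Figure D3:**
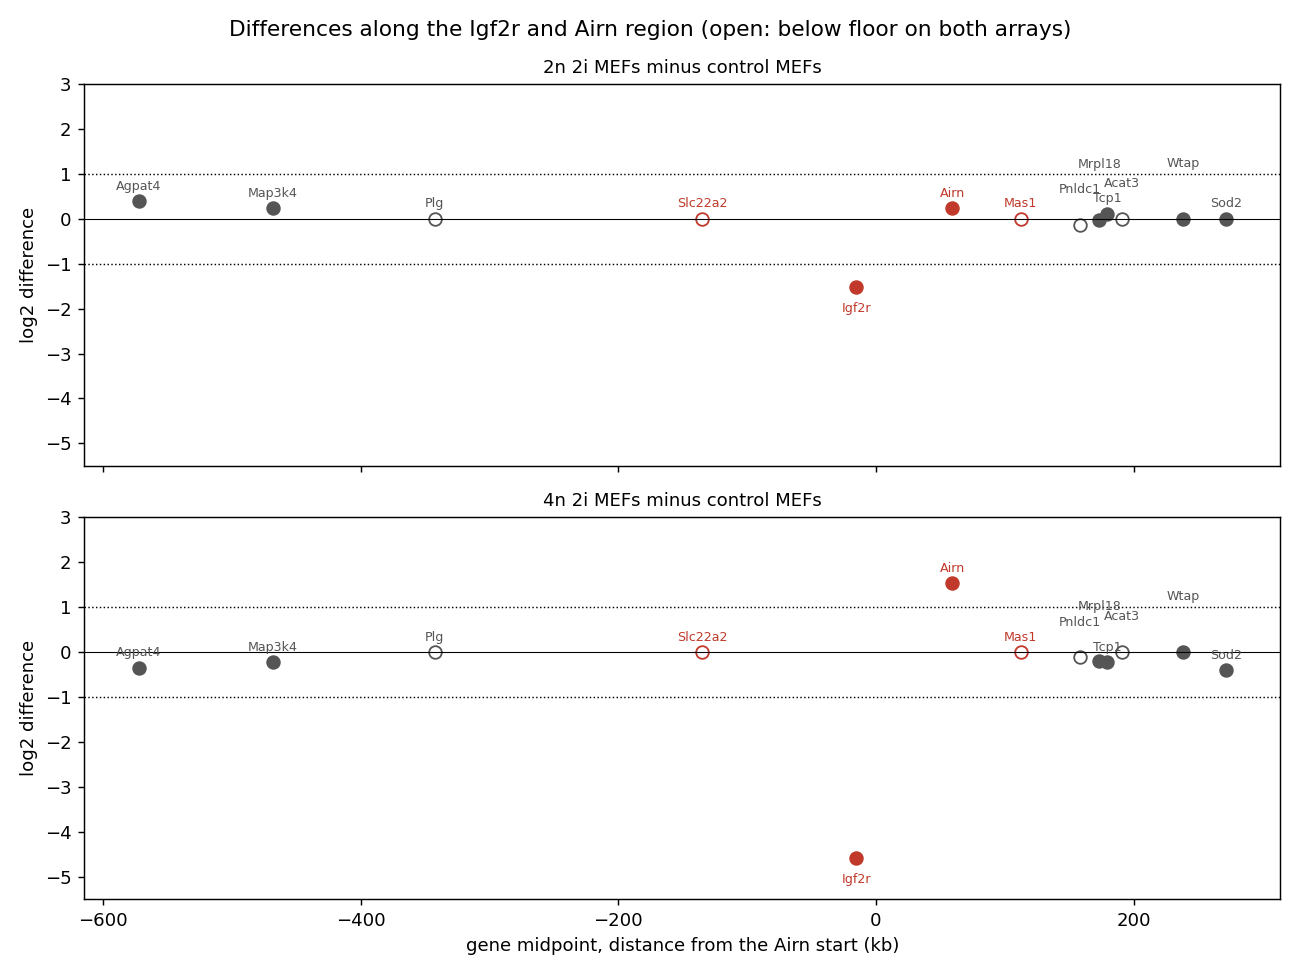
Log2 difference from the control MEF array for the 2n (top) and 4n (bottom) 2i MEF arrays, by the distance of each gene's midpoint from the Airn start, with cluster genes in red, neighbours in grey, open symbols for genes below the floor on both arrays and dotted lines at 2-fold. Igf2r is at -1.54 and -4.58 and Airn at 0.23 and 1.53, while the neighbours above the floor stay within 2-fold.

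Other imprinted genes whose control regions are methylated in the oocyte were set beside the pair. Of 10 paternally expressed ones compared, not counting Airn, 3 were at least 2-fold higher on the 2n array than on the control array and none lower, and 5 were higher on the 4n array and none lower. Of all genes, 1.48% and 5.26% were higher in these pairs. The list's median log2 differences were 0.49 and 0.79, beside 0.00 and -0.01 for all genes. On the 4n against the 2n array, a pair without the control, 2 of the 10 were higher and 1 was lower, Nap1l5, a histone chaperone-like gene (-1.06, against a 4n value below the floor), with a median of 0.19. On the 2i against the S ESC array 1 of 9 was higher, Plagl1 (2.97), and 1 lower, Nnat (-1.78, against a 2i value below the floor). The 5 on the 4n array were Mest (3.32), a hydrolase-like gene, the zinc finger genes Plagl1 (2.48) and Peg3 (1.49), Nnat (2.00), which encodes a small membrane protein, and 1 other. Of 6 maternally expressed ones compared, not counting Igf2r, 1 was at least 2-fold lower on the 2n array and 2 on the 4n array, with medians of -0.21 and -0.42 and none higher, beside 0.425% and 3.42% of all genes lower. Grb10, an adaptor that restrains insulin and growth factor signalling, was lower on both (-1.37 and -5.20, the latter against 162.5 units on the 4n array, below the floor), and the signal peptide peptidase gene H13 on the 4n array (-1.02). The 2n and 4n comparisons share the control array. On the 2i against the S ESC array 3 of 9 maternally expressed ones were at least 2-fold lower and none higher. They were Phlda2 (-3.71), Slc22a18 (-1.52, against a 2i value below the floor) and Grb10 (-1.47). The median was -0.30 beside -0.04 for all genes, while Igf2r had 0.59. On the 4n against the 2n array 1 of 4 was lower, Grb10 (-3.83), and none higher. Of all genes, 2.79% were higher and 2.54% lower in the ESC pair, and 3.33% and 2.36% in the other.

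Among IGF genes, the ligand of Igf2r was low on the same 4n array. Igf2 had 6870 units on the control MEF array, 5700 on the 2n array and 360.5 on the 4n array, 19-fold lower than the control. Igf1, the related growth factor, had 384.2, 476.6 and 2408 units and was 6.25-fold higher on the 4n array than on the control. The signalling receptor gene Igf1r had 2732, 2290 and 1889 units and lay within 2-fold, as did Insr, Irs1 and Irs2. So of the 6 genes of this list, 1 was higher and 1 lower on the 4n array, and none on the 2n array. Of all genes, 5.26% were higher and 3.42% lower in the 4n pair, and 1.48% and 0.425% in the 2n pair. Between ESCs and MEFs 3 of the 6 were lower in ESCs, beside 16.7% of all genes, and none higher, namely Igf1 (log2 -2.85, adjusted p = 0.0455 in limma), Igf1r (-2.14, adjusted p = 0.00339) and Irs1 (-3.95, adjusted p = 0.000186), an adaptor of both receptors.

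The sorting route that Igf2r serves was described by a list of 12 measured genes, which tag enzymes with mannose 6-phosphate or sort the receptors, apart from Plaur. None of the 12 was at least 2-fold different on the 2n array from the control. On the 4n array 1 was lower, Plaur, the urokinase receptor gene, which belongs to neither step (469.5 against 1665 units, 3.54-fold), and none was higher. These counts are near the background of 1.48% higher and 0.425% lower in the 2n pair and 5.26% and 3.42% in the 4n pair. The median was -0.02 in both pairs. M6pr, which encodes the other mannose 6-phosphate receptor, was on a probe set shared with its pseudogene and is not given. Of 25 lysosomal hydrolases and other cargo, none differed 2-fold on the 2n array. On the 4n array 1 was higher, Naglu, a heparan sulfate hydrolase (1029 against 450.9 units, 2.28-fold), with 18 of 25 higher by any amount and a median of 0.24 beside -0.01 for all genes. The macrophage markers were higher on the same array, as given above, and their part in these values was not tested. In ESCs against MEFs, 15 of 25 were lower, beside 16.7% of all genes, and none higher (median -1.21 beside 0.05 for all genes), led by the arylsulfatase gene Arsb (-2.86, adjusted p = 0.00117 in limma), the cathepsin gene Ctsb (-1.76, adjusted p = 0.0101) and the lipase gene Lipa (-1.72, adjusted p = 0.00303). On the 2i against the S ESC array 1 of 24 was at least 2-fold higher, the hexosaminidase gene Hexa (2586 against 1012 units), and 20 were higher by any amount. In this pair 2.79% of all genes were at least 2-fold higher, and the list's median was 0.44 beside -0.04 for all genes. Of 23 genes of the lysosomal list with a RefSeq start window, 9 held CACGTG, beside 7.15% of all windows. The former counts genes and the latter windows. The windows were not matched for CpG sites, which the motif contains, so the values show no enrichment by themselves. The motif was picked after the Igf2r window had been read, and a link between these genes and Igf2r was not tested.

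**Figure D4:**
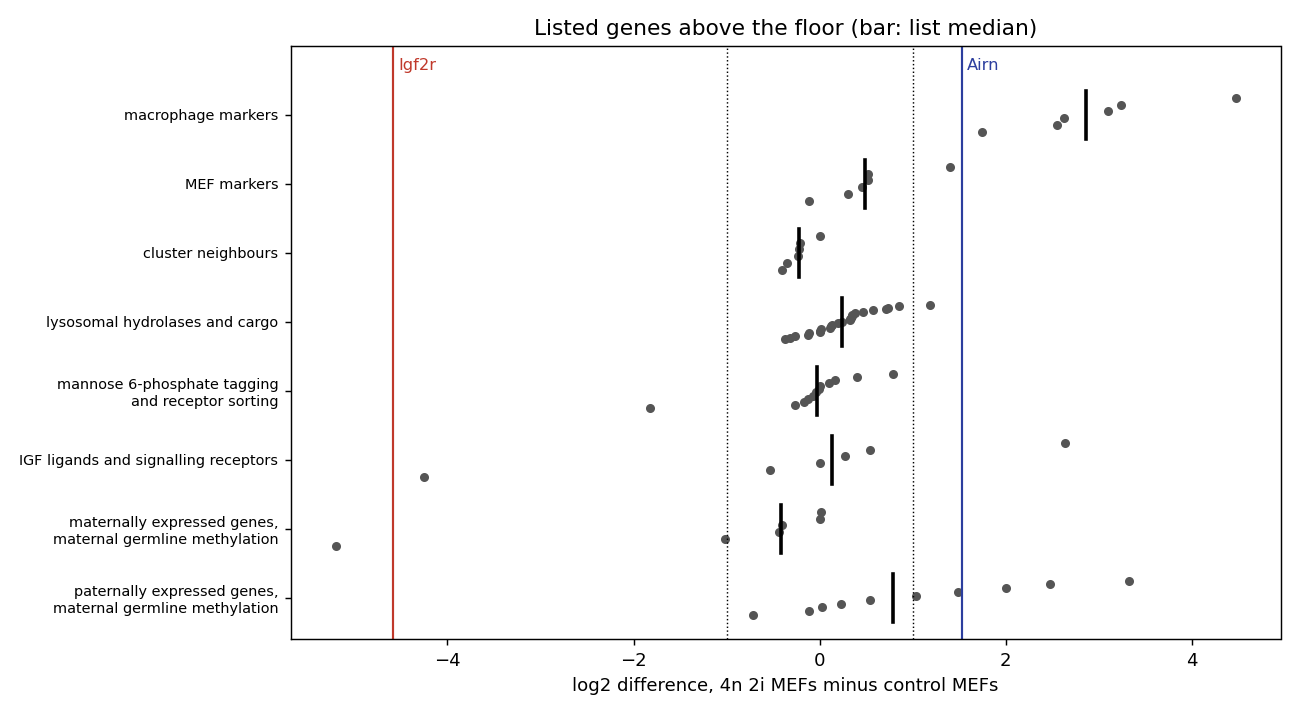
Log2 difference of 4n 2i MEFs from control MEFs for the listed genes above the floor, 1 point per gene, with a bar at each list's median, vertical lines at Igf2r (-4.58) and Airn (1.53), and dotted lines at 2-fold. Grb10 (-5.20) and Igf2 (-4.25) lie nearest to Igf2r, with Grb10 and Igf2r below the floor on the 4n array, and the macrophage markers have the highest median (2.86).

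Chromatin and methylation factors that are linked to Airn or to its control region were nearly all measured above the floor. Compared with MEFs, ESCs had 7 of 13 higher and none lower, beside 16.8% and 16.7% of all genes, with a median of 1.33 beside 0.05 for all genes. The largest differences were those of the methylation cofactor Dnmt3l (log2 5.64, adjusted p = 0.000145 in limma), the Polycomb genes Eed (2.25, adjusted p = 0.00105) and Suz12 (1.58, adjusted p = 0.00588), and Zfp57 (1.85, adjusted p = 0.00207), which protects imprints. Ehmt2, the histone methyltransferase G9a, had a difference of 0.15 with an interval from -0.08 to 0.38 (adjusted p = 0.198 in limma). Among MEFs, none of 12 differed 2-fold on the 2n array from the control, beside 1.48% of all genes higher and 0.425% lower. On the 4n array 1 was higher, the de novo methyltransferase Dnmt3a (719.3 against 275.9 units), and none lower, beside 5.26% and 3.42% of all genes. Zfp57 had 2067 units against 2380. On the 2i ESC array Dnmt3a was 2.13-fold lower than on the S ESC array (517.4 against 1105 units), and the other 12 lay within 2-fold.

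Relatives of the silent members gave few values. Of 13 other organic cation and SLC22 transporters, 12 were measured and 5 were above the floor in each MEF array against the control. On the 4n array 1 was higher, Slc22a23 (648.2 against 197.8 units, the latter below the floor), and none was lower, beside 5.26% and 3.42% of all genes. Of 6 compared between ESCs and MEFs 2 were higher in ESCs, beside 16.8% of all genes, the monoamine transporter gene Slc29a4 (log2 1.93, adjusted p = 0.00153 in limma) and the exporter gene Slc47a1 (1.39, adjusted p = 0.00542). Slc47a1 had 115.9 units on each MEF array, so no spread among MEFs entered its p value. Slc22a18, which is imprinted in another cluster, had 177.1 units on the 2i ESC array and 511.1 on the S ESC array, 2.88-fold lower against a value below the floor. Of 11 renin-angiotensin genes 7 were measured. Agtr2, an angiotensin II receptor gene, had 206.7 units on the control, 272.5 on the 2n and 1062 on the 4n MEF array, and the peptidase gene Enpep 93.7, 246.9 and 285.9. In 4n against control MEFs these were the 2 of 5 compared that were at least 2-fold higher, beside 5.26% of all genes. Both were set against control values below the floor. Markers of tissues known for Slc22a2, those of liver and kidney tubule, were below the floor on the MEF arrays except Lrp2, an endocytic receptor gene (451.1 units on the control array). Of the 6 trophoblast markers Cdx2, Elf5 and Hand1 were below the floor on all arrays. Gata3 had 658.9, 548.0 and 968.9 units on the 2n, 4n and control MEF arrays. Tfap2c had 942.5 and 759.7 units on the 2i and S ESC arrays and 68.7 on each MEF array, below the floor. Eomes reached the floor on the 2i ESC (371.5 units) and control MEF (252.4 units) arrays and was at least 2-fold lower on the 2n and 4n arrays (118.1 and 68.6 units, below the floor). The part of such cells in the Igf2r and Airn values was not tested.

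The genes with profiles most like that of Igf2r included Grb10. Likeness was the root-mean-square distance between log2 profiles over the 5 arrays, each centred on its own mean, among 11825 genes that reached the floor on at least 1 array. The nearest to Igf2r were Pcolce2 (0.56), an enhancer of procollagen processing, Prrg4 (0.62), Grb10 (0.75), the drug exporter gene Abcb1b (0.88) and the T-box gene Eomes (0.93), beside a median distance of 1.59 over all genes. All 5 had their lowest value on the 4n 2i MEF array, as Igf2r did, which their choice by distance from it favours. Between the ESC cultures the profiles were not all alike. Igf2r was higher on the 2i than on the S ESC array (1891 against 1259 units), as were Pcolce2, Abcb1b and Eomes. Grb10 (1131 against 3129 units) and Prrg4 (854.4 against 1421 units) were lower on the 2i array. Pcolce2 had 1812, 1370, 1003, 170.7 and 1311 units on the 2i ESC, S ESC, 2n, 4n and control arrays. The nearest to Airn were Ldb2 (0.17), a LIM domain binding cofactor, the caspase gene Casp12 (0.29), the proteoglycan gene Prelp (0.30), Col3a1 (0.31) and the homeobox gene Meis1 (0.31), beside a median of 2.03. All 5 were highest on the 4n array and below the floor on both ESC arrays, as Airn was, and their choice by distance from Airn favours such a shape. Ldb2 had 106.0, 120.4, 1396, 2988 and 1171 units in the same order of arrays. These distances describe 5 arrays of 2 cell types and carry no test.

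**Figure D5:**
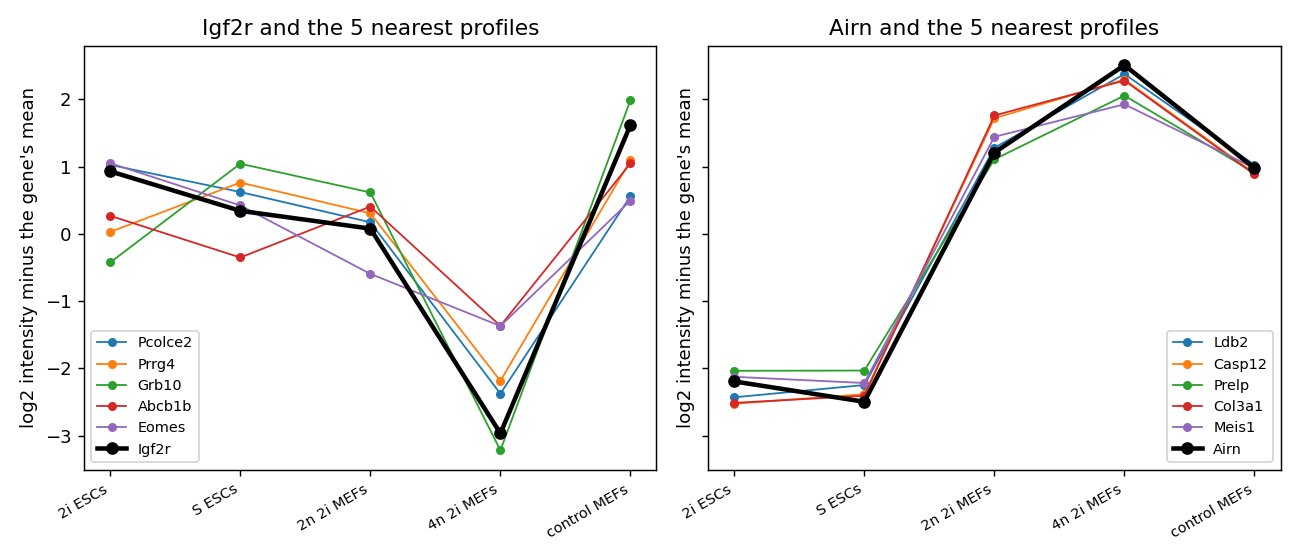
Log2 intensity less each gene's own mean over the 5 arrays, for Igf2r (left, black) and Airn (right, black) with the 5 genes of the smallest root-mean-square distance. The Igf2r set is lowest on the 4n 2i MEF array, and the Airn set is high on the MEF arrays and highest on the 4n array.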

How the data were processed

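Total RNA of 5 samples was labelled with a whole-transcript kit and hybridised, per the labels' protocols. Intensity values on a linear scale for 28853 probe sets were deposited by the authors, already summarised. How they were background-corrected and normalized is not stated in these sources. The platform table gave 1 gene symbol for 21789 probe sets, several for 1621 and none for 5443, and Entrez numbers matched 21698 of the first to RefSeq (GRCm38.p6). The brightest probe set stood for a gene; each measured member had 1.

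Values were analysed as log2(value + 1). A gene entered a pair where its brighter array reached the floor, the median of the one-gene probe sets, and was called at 2-fold with no test. ESC arrays (2) and MEF arrays (3) were compared with limma (lmFit, eBayes; 3 residual degrees of freedom) over genes whose mean reached the mean floor on either side, called at a Benjamini-Hochberg adjusted p under 0.05 and 2-fold. Named genes were the members, neighbours, Igf2, the 5 nearest profiles and, per list and comparison, up to 4 called genes by size; Ehmt2, Insr, Irs2 and the markers below the floor were named after their values were seen. Members and the 17 lists were chosen with earlier results of these data known. The limma step was run on simulated data with independent noise and no identical values, which cannot show how such values affect the p values here. The labels do not say that samples came from separate cultures or animals, so p values measure the spread between these samples. The software was limma 3.58.1 in R 4.3.3, and pandas 2.3.3 and numpy 2.4.6 in Python 3.11.15.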

Additional observations from a re-analysis of the deposited data

How the results depend on the processing

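No paired analysis was possible because each group has 1 array. The 6 alternatives were a 3-fold threshold, a pseudocount of 16, averaged probe sets per gene, quantile scaling, a floor raised to the 75th percentile, and none at all. ESCs against MEFs were also fitted without each array in turn and with limma's trended, robust prior. Among the pairs of arrays, each Igf2r and Airn difference kept its direction under all 6. Igf2r ranged from -4.58 to -4.43 (4n against control), -3.04 to -2.90 (4n against 2n), -1.56 to -1.53 (2n against control) and 0.58 to 0.62 (2i against S ESCs), and Airn from 1.51 to 1.57, 1.29 to 1.37 and 0.20 to 0.23 in the MEF pairs. At 3-fold the calls of Igf2r in 2n against control (-1.54) and of Airn in 4n against control (1.53) and against 2n (1.30) were lost by the stricter threshold itself. In ESCs against MEFs, leaving out 1 array gave Airn -4.20 to -3.44 (adjusted p over all alternatives 0.0018 to 0.061 in limma) and Igf2r -0.21 to 2.08 (0.2 to 0.808), with the sign of Igf2r reversed (-0.21) without the 4n 2i MEF array. A lone ESC array is then assumed to vary like the MEF arrays. Counts over all genes moved by over 1.5 times where fewer genes were compared or the threshold rose. With the floor at the 75th percentile, higher and lower genes numbered 120 and 85 (2i against S ESCs), 52 and 28 (2n against control), 274 and 231 (4n against control), 177 and 130 (4n against 2n) and 1034 and 1183 (ESCs against MEFs). At 3-fold they numbered 95 and 87, 45 and 8, 273 and 105, 153 and 51, and 939 and 1116. Values identical on 2 or more MEF arrays occurred for 32.5% of the genes tested in ESCs against MEFs; without them 1012 of 7604 were called higher and 1517 lower. Signal near background limits Slc22a2, Mas1, Airn in ESCs and Igf2r in 4n 2i MEFs.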
